A study of Homo sapiens with 12 samples.

Results

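Albumin, alpha-fetoprotein (AFP) and a set of oncofetal and liver progenitor genes were followed in a pair of hepatocellular carcinoma (HCC) cell lines treated with DAAD2, an N-acetyl-L-cysteine derivative of (+)-dehydroabietylamine. The 10 genes were AFP, ALB, DLK1, GPC3, H19, IGF2, PEG10, SOX9, LIN28B and SPINK1, and every probe set that the platform annotation maps to 1 of these symbols was taken. That gave 20 of the 54613 probe sets on the array after control probe sets were left out. In 15 of these 20 the probe set names the member gene alone, and 8 of the 10 genes are among the 19775 genes that have such a probe set. The other 5 probe sets are shared between symbols, 3 between IGF2 and INS-IGF2 and 2 between H19 and MIR675, so their values stand for neither gene alone and are given here under both symbols.

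The DAAD2-sensitive line Hep3B was given 2 µM DAAD2 for 72 h, and the DAAD2-resistant line SNU449 was given 20 µM for 72 h. The controls of each line received 0.1% dimethyl sulfoxide (DMSO), the vehicle, for the same time. There were 3 arrays in each of the 4 groups, 12 in all, and the RNA was hybridised to Affymetrix Human Genome U133 Plus 2.0 arrays. The dose differs between the lines, so a difference in response between them holds both the line and the dose and these cannot be told apart. Cells were treated in triplicate, and the methods describe data in general as coming from independent experiments. They do not tie that to these arrays, so the spread behind the p-values may be technical in part.

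Albumin is the main plasma protein made by hepatocytes, and AFP is its fetal relative, which is switched off after birth and returns in many liver tumours. DLK1, GPC3, IGF2, H19, PEG10 and LIN28B belong to the same fetal programme, several of them as imprinted genes expressed from a single parental copy, while SOX9 and SPINK1 mark biliary or progenitor-like cells and inflamed or malignant tissue. LIN28B acts after transcription, since its protein binds let-7 precursors and keeps mature let-7 from accumulating.

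ALB and AFP lie next to each other on human chromosome 4, and the stretch upstream of each start is shown because these are the hepatocyte-specific promoters of the group. The sequences are the 160 bases directly before each gene start on the plus strand, taken from RefSeq (build GRCh38.p14), at chr4:73404127-73404286 for ALB and chr4:73436061-73436220 for AFP. Capitals mark matches to GTTAAT, part of the site bound by HNF1 factors, searched on both strands.
ALB: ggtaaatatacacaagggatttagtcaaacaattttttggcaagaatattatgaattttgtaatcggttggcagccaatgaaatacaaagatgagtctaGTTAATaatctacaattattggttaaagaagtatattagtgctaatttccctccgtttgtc
AFP: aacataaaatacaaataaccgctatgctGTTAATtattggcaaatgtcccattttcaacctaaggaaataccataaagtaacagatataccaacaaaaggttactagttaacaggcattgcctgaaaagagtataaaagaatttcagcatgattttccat
Each promoter held 1 match, on the plus strand, starting 61 bases before the ALB start and 132 bases before the AFP start. Over windows of 300 bases, from 250 before to 50 after the start, 6.88% of 35116 promoters in the table held this motif. The CCAAT motif was present 2 times in each of the ALB and AFP windows, against 34.6% of all promoters with at least 1 match on either strand, and none of them overlapped the GTTAAT match. The TATAAA motif was present in the AFP window, 29 bases before the start, and in 11.5% of all promoters. The table held promoters for 5 of the 10 members, and the windows of SPINK1, LIN28B and H19 held no GTTAAT. A match is a description of letters and no factor binding was measured.

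For LIN28B, the mature let-7a-5p sequence is shown because let-7 is the RNA family its protein acts on. The capitals mark the seed, bases 2 to 8.
let-7a-5p: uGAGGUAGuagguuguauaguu
All 9 mature miRNAs of the let-7 family in the RefSeq table, miR-98-5p included, share this seed. Mature miRNAs were not measured on these arrays.

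Values are log2 levels after robust multi-array average (RMA) summarisation, and a difference of 1 is a doubling of signal. The array medians lay between 3.71 and 3.85, and a probe set near the median of its array carries little signal above background. No detection calls were used here, so where a group lies near or below its array medians the difference is one of measured levels and no fold is given. The highest probe set of each array lay between 14.44 and 14.70. Over the 6 arrays of each line, 15 hepatocyte genes averaged 10.74 to 10.78 in DAAD2-treated Hep3B cells and 10.92 to 11.01 in Hep3B controls, with all 15 above the array median. The same list averaged 5.02 to 5.11 in DAAD2-treated SNU449 cells and 4.69 to 4.81 in SNU449 controls, with 10 and 9 genes above the median in that order of groups. A list of 8 mesenchymal genes averaged 7.18 to 7.43 on Hep3B arrays and 10.27 to 10.44 on SNU449 arrays, and PTPRC, the pan-leukocyte marker, stayed below the array median in both lines. A list of 4 leukocyte genes, PTPRC included, averaged 3.78 to 4.42 over all arrays. Of these 4 genes, 3 lay above the array median in both Hep3B groups and 2 in both SNU449 groups. CD14 was among them in Hep3B, at 5.78 in treated cells and 5.37 in controls. The SNU449 DAAD2 replicate 2 had a GAPDH 3′ minus 5′ signal of 1.99, against 0.34 to 1.51 on the other 11 arrays, a sign of RNA quality. The same measure for ACTB was highest on another array, Hep3B DAAD2 replicate 3, at 3.27. By ACTB the SNU449 DAAD2 replicate 2 was at 3.04, and the lowest array, SNU449 DMSO replicate 2, at 1.82.

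**Figure D1:**
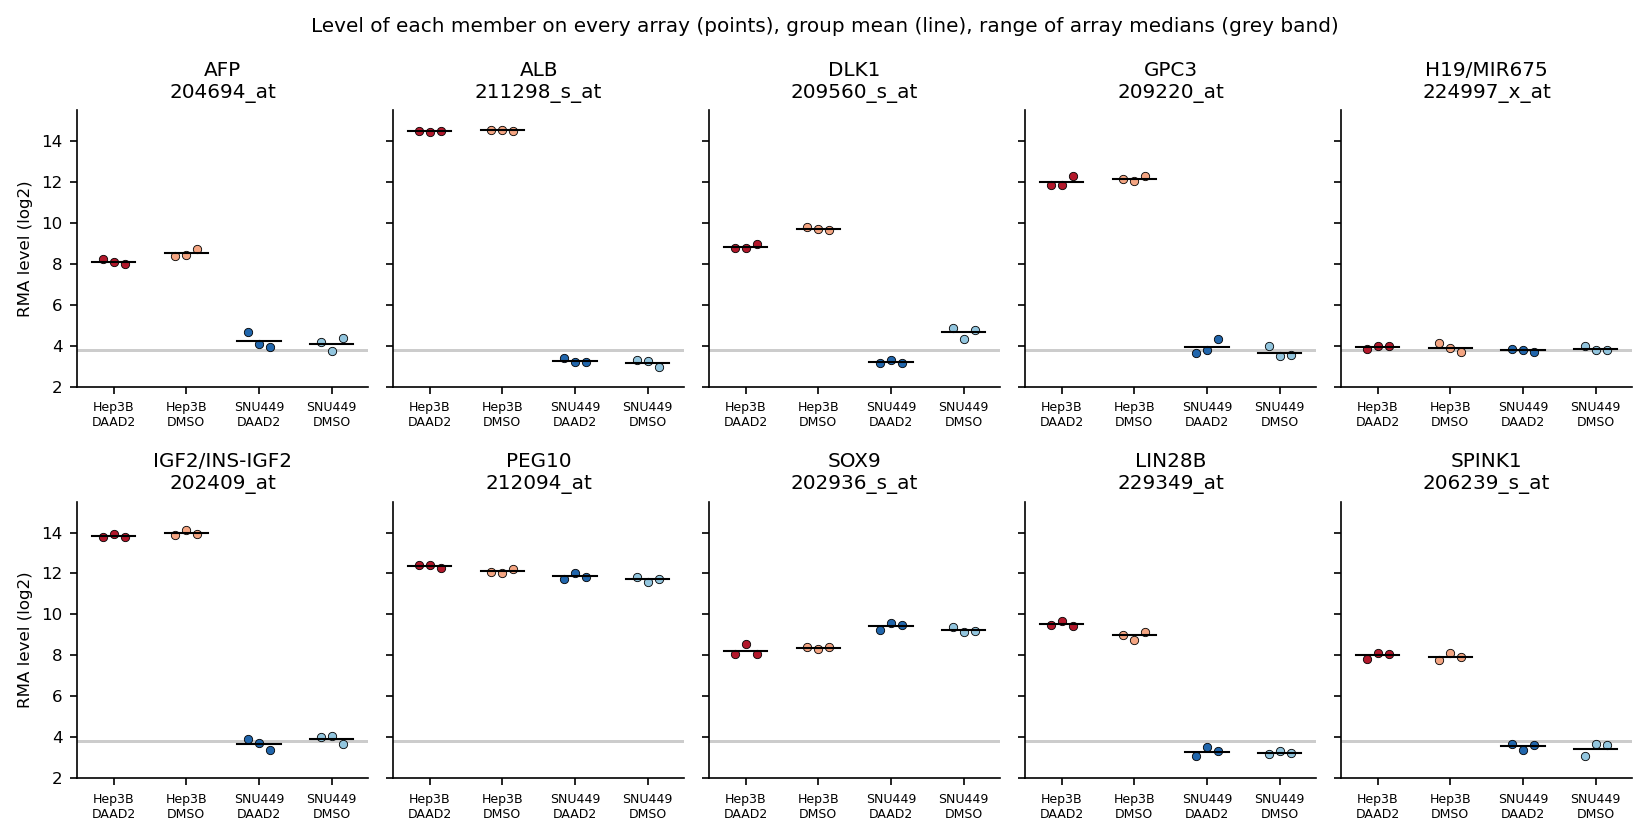
RMA level (log2) of the brightest probe set of each of the 10 genes (for IGF2 and H19 a probe set shared with INS-IGF2 and MIR675) on every array of the 4 groups, points for arrays, a short line for the mean of 3, and a grey band for the range of array medians, 3.71 to 3.85. ALB, IGF2/INS-IGF2 and GPC3 are bright in Hep3B and near the band in SNU449, PEG10 and SOX9 are bright in both lines, and H19/MIR675 lies at the band in all groups.

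The first question was how far the lines differ in this programme before treatment. In DMSO, 14 of the 20 member probe sets differed between Hep3B and SNU449 by limma's moderated test (adjusted p under 0.05 over all 54613 probe sets), 13 higher and 1 lower in Hep3B. Over all probe sets, 14.5% were called higher and 14.8% lower in Hep3B, so a share of 29.3% was called in either direction. The median difference was 3.18 over the member probe sets and −0.01 over all probe sets. ALB, AFP, GPC3, DLK1, LIN28B, SPINK1 and IGF2/INS-IGF2 were the Hep3B-high genes, PEG10 was high in both lines with a small difference, SOX9 was higher in SNU449, and H19/MIR675 was near background in both.

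ALB, the albumin gene, had levels of 14.53, 14.56 and 14.50 in Hep3B controls, against 3.30, 3.27 and 2.98 in SNU449 controls, by probe set 211298_s_at. The Hep3B values were close to the brightest probe set on the arrays, and the SNU449 values lay below the median of their arrays, so the difference is set between the top and the bottom of the measured range. The difference was 11.35 ± 0.11 (SE, n = 3 and 3, limma adjusted p = 5.20e-10), ranked 2 by p among all probe sets. The other ALB probe sets, 1565228_s_at, 214842_s_at and 214837_at, were also called higher in Hep3B, by 9.92, 1.93 and 1.24. They thus agreed in direction and differed widely in size, and 214842_s_at spread from 4.35 to 6.41 over the 6 Hep3B arrays, which made it the noisiest member.

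AFP, the fetal albumin relative used as a serum marker of HCC, lay at 8.40, 8.45 and 8.73 in Hep3B controls, against 4.17, 3.75 and 4.40 in SNU449 controls (204694_at). The groups did not overlap, and the difference was 4.42 ± 0.17 (SE, limma adjusted p = 1.46e-07). AFM, the albumin family gene that follows AFP on the chromosome, was looked at after its values were seen and lay between 2.88 and 3.45 on all 12 arrays, below every array median.

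GPC3, a cell-surface heparan sulfate proteoglycan and HCC antigen, lay at 12.12, 12.03 and 12.29 in Hep3B controls, against 3.98, 3.48 and 3.56 in SNU449 controls (209220_at). The difference was 8.47 ± 0.15 (SE, limma adjusted p = 2.09e-09). A second GPC3 probe set, 243243_at, stayed between 3.15 and 4.12 on all 12 arrays and was not called, so only 1 of the 2 GPC3 probe sets carried the signal.

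IGF2, a fetal growth factor, was read by 3 probe sets shared with INS-IGF2. The brightest, 202409_at, had 13.86, 14.12 and 13.94 in Hep3B controls, against 4.03, 4.08 and 3.70 in SNU449 controls, a difference of 10.04 ± 0.13 (SE, limma adjusted p = 6.01e-10). The other pair, 202410_x_at and 210881_s_at, differed by 7.74 and 6.68, and both were called. H19, the non-coding RNA neighbour of this locus, was read by a pair of probe sets shared with MIR675, which spanned 3.41 to 4.21 over all 12 arrays. Neither H19/MIR675 probe set was called between the lines (224646_x_at −0.36, limma adjusted p = 0.0530).

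DLK1, a Notch-like membrane protein of hepatoblasts, had 9.82, 9.72 and 9.64 in Hep3B controls, against 4.86, 4.36 and 4.75 in SNU449 controls (209560_s_at). All SNU449 control arrays were above their array median, unlike those of ALB, LIN28B or SPINK1, and the lines differed by 5.07 ± 0.14 (SE, limma adjusted p = 2.34e-08). The second DLK1 probe set, 235600_at, lay between 3.32 and 3.72 on all arrays, each time below the median of its own array.

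LIN28B, the RNA-binding inhibitor of let-7, had 9.02, 8.76 and 9.15 in Hep3B controls, against 3.21, 3.34 and 3.21 in SNU449 controls, a difference of 5.72 ± 0.12 (SE, limma adjusted p = 4.90e-09). SPINK1, a secreted trypsin inhibitor, had 7.76, 8.13 and 7.90 in Hep3B controls, against 3.11, 3.66 and 3.60 in SNU449 controls, a difference of 4.48 ± 0.16 (SE, limma adjusted p = 1.14e-07). For both genes all 6 SNU449 arrays were below the array median.

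PEG10, a retrotransposon-derived imprinted gene, was bright in both lines, with 12.07, 12.005 and 12.23 in Hep3B controls, against 11.82, 11.59 and 11.71 in SNU449 controls (212094_at). The groups did not overlap, and the difference of 0.39 ± 0.11 (SE) passed the test (limma adjusted p = 0.0228). The call was lost without Hep3B DMSO replicate 1 or 3 or without SNU449 DMSO replicate 2 or 3 (adjusted p = 0.0530, 0.0760, 0.0870 and 0.0656), and the second probe set, 212092_at, overlapped between the lines.

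SOX9, a transcription factor of biliary and progenitor cells, was the 1 member lower in Hep3B, with 8.40, 8.30 and 8.39 in Hep3B controls, against 9.37, 9.16 and 9.21 in SNU449 controls (202936_s_at). This was 1.84-fold lower in Hep3B (−0.88 ± 0.10, SE, limma adjusted p = 1.2e-04). The second SOX9 probe set, 202935_s_at, was −0.71 ± 0.35 (SE) and was not called (limma adjusted p = 0.188).

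**Figure D2:**
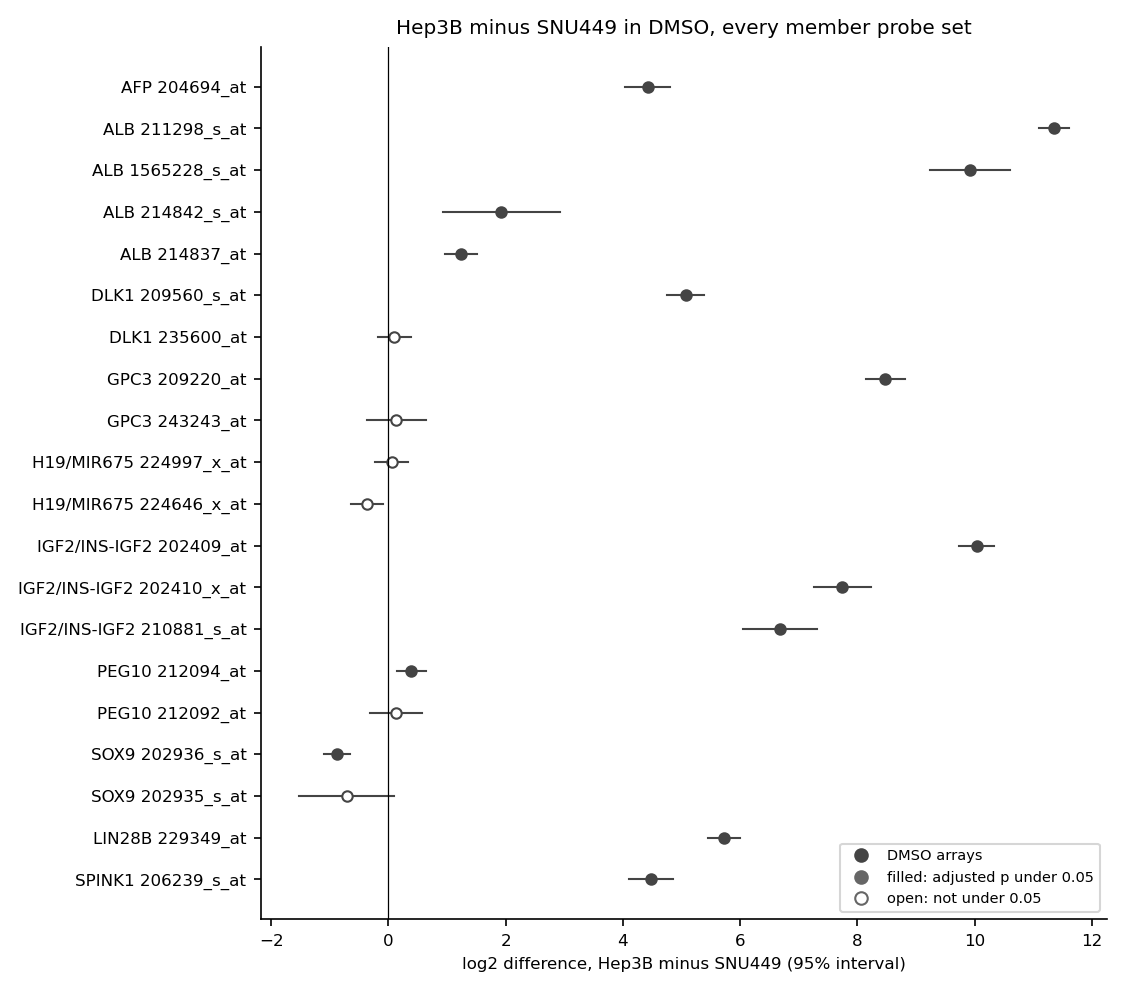
Difference in log2 level between Hep3B and SNU449 controls (Hep3B minus SNU449, horizontal axis) for each of the 20 member probe sets, with 95% intervals from limma; filled points have an adjusted p under 0.05. The filled points run from −0.88 for SOX9 to 11.35 for ALB, and 6 open points lie near 0.

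In Hep3B cells, DAAD2 left albumin near the top of the scale. The levels of treated and control arrays stood apart for DLK1, AFP and LIN28B, and also for ALB and PEG10. None of the 20 member probe sets passed the adjusted threshold in Hep3B, where 0% of all 54613 probe sets did by limma. At an unadjusted p under 0.05 there were 8191 probe sets (15% of all), among them 6 member probe sets. These were 3 higher in treated cells (PEG10 at both probe sets and LIN28B), where 9.53% of all probe sets were, and 3 lower (DLK1, AFP and 1 IGF2/INS-IGF2 probe set), where 5.47% were. The arrays of the groups did not overlap for 6 member probe sets, and for 21% of all probe sets. The median difference was −0.14 over the members and −0.02 over all probe sets.

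DLK1 had 8.77, 8.76 and 8.99 in DAAD2-treated Hep3B cells, against 9.82, 9.72 and 9.64 in Hep3B controls (209560_s_at). Every treated array was lower than every control array. The difference of −0.89 ± 0.10 (SE, n = 3 and 3, 95% interval −1.13 to −0.65) was 1.85-fold lower in treated cells, ranked 13 of all probe sets by p, and missed the threshold (limma adjusted p = 0.0581). It passed in 3 of 16 alternative analyses, over which the adjusted p ran from 0.0191 to 0.268. In these bulk samples, fewer cells with DLK1 RNA and less of it per cell cannot be told apart.

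AFP had 8.24, 8.08 and 7.98 in DAAD2-treated Hep3B cells, against 8.40, 8.45 and 8.73 in Hep3B controls. The groups did not overlap, by a gap smaller than the spread within controls, and the difference was −0.43 ± 0.12 (SE, 95% interval −0.70 to −0.16, limma adjusted p = 0.158). ALB, its neighbour, had 14.50, 14.45 and 14.47 in treated Hep3B cells, against 14.53, 14.56 and 14.50 in Hep3B controls (211298_s_at). That difference was −0.06 ± 0.09 (SE, 95% interval −0.25 to 0.14, limma adjusted p = 0.796), and at this height the scale leaves little room above the control values. The ALB arrays did not overlap either, by a gap that does not show at this rounding. By 1565228_s_at, the second brightest ALB probe set, levels were 12.71, 12.45 and 11.74 in treated cells, against 12.86, 13.29 and 11.91 in controls, and replicate 3 was the lowest in both groups.

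LIN28B had 9.47, 9.68 and 9.43 in DAAD2-treated Hep3B cells, against 9.02, 8.76 and 9.15 in Hep3B controls. All treated arrays were above all control arrays, and the difference was 0.55 ± 0.13 (SE, 95% interval 0.26 to 0.84), 1.46-fold, which was not called (limma adjusted p = 0.112). PEG10 had 12.39, 12.42 and 12.27 in treated Hep3B cells, against 12.07, 12.005 and 12.23 in Hep3B controls (212094_at). Its probe sets differed by 0.26 ± 0.10 and 0.38 ± 0.13 (SE), with limma adjusted p of 0.273 and 0.237, and in each the groups stood apart.

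IGF2/INS-IGF2 differed by −0.14, −0.51 and −0.46 at 202409_at, 202410_x_at and 210881_s_at (limma adjusted p = 0.581, 0.337 and 0.288). At 202410_x_at the levels were 11.40, 11.72 and 11.27 in DAAD2-treated Hep3B cells, against 12.14, 12.34 and 11.43 in Hep3B controls, and the groups overlapped because control replicate 3 lay below treated replicate 2. The brightest probe set thus had the smallest difference. Its Hep3B levels, 13.76 to 14.12, lay near the top of the scale, where the highest probe set of each array was at 14.44 to 14.70. Its small difference is therefore no measure of those at the other probe sets.

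GPC3 had 11.88, 11.85 and 12.27 in DAAD2-treated Hep3B cells, against 12.12, 12.03 and 12.29 in Hep3B controls, a difference of −0.15 ± 0.14 (SE, 95% interval −0.46 to 0.16). SOX9 had 8.07, 8.54 and 8.08 in treated cells, against 8.40, 8.30 and 8.39 in controls, a difference of −0.14 ± 0.14 (SE, 95% interval −0.45 to 0.18). SPINK1 had 7.82, 8.13 and 8.05 in treated cells, against 7.76, 8.13 and 7.90 in controls, a difference of 0.07 ± 0.13 (SE, 95% interval −0.22 to 0.36). The groups overlapped for all 3 genes, and the limma adjusted p was 0.654, 0.692 and 0.845 in that order of genes.

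In SNU449 cells, DLK1 fell with DAAD2 and no other member passed the test. Of the 20 member probe sets 1 was called, against 1.46% of all probe sets in either direction and 0.417% lower. With 1 array left out, the 798 called probe sets became 105 to 1168, lowest without SNU449 DMSO replicate 3 and highest without SNU449 DAAD2 replicate 2, and DLK1 was called each time. DLK1 had 3.15, 3.31 and 3.18 in DAAD2-treated SNU449 cells, against 4.86, 4.36 and 4.75 in SNU449 controls (209560_s_at). The treated arrays all lay below their array median, where no further fall could be read, and the control arrays all lay above it. The difference was −1.44 ± 0.15 (SE, n = 3 and 3, 95% interval −1.77 to −1.11, limma adjusted p = 0.00438).

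The DLK1 call in SNU449 held in 15 of 16 alternative analyses, with an adjusted p of 7.11e-05 to 0.160 over them, and was lost only where the variances were not moderated across probe sets. Without SNU449 DAAD2 replicate 2, the array with the highest GAPDH 3′ minus 5′ signal, the difference was −1.49 (limma adjusted p = 0.0103). Probe set 235600_at, which was below the array median throughout, showed no such difference.

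The other 19 member probe sets differed by between −0.26 and 0.25 in SNU449, with a lowest limma adjusted p of 0.583. AFP had 4.70, 4.10 and 3.95 in DAAD2-treated SNU449 cells, against 4.17, 3.75 and 4.40 in SNU449 controls, a difference of 0.14 ± 0.22 (SE, 95% interval −0.36 to 0.65). LIN28B had 3.08, 3.52 and 3.32 in treated SNU449 cells, against 3.21, 3.34 and 3.21 in controls, a difference of 0.05 ± 0.13 (SE). Both overlapped between groups, and LIN28B was below the array median on all 6 arrays. PEG10 had 11.74, 12.05 and 11.84 in treated SNU449 cells, against 11.82, 11.59 and 11.71 in controls (212094_at). SOX9 had 9.24, 9.56 and 9.46 in treated SNU449 cells, against 9.37, 9.16 and 9.21 in controls (202936_s_at). These were the bright members of this line, and their groups overlapped.

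**Figure D3:**
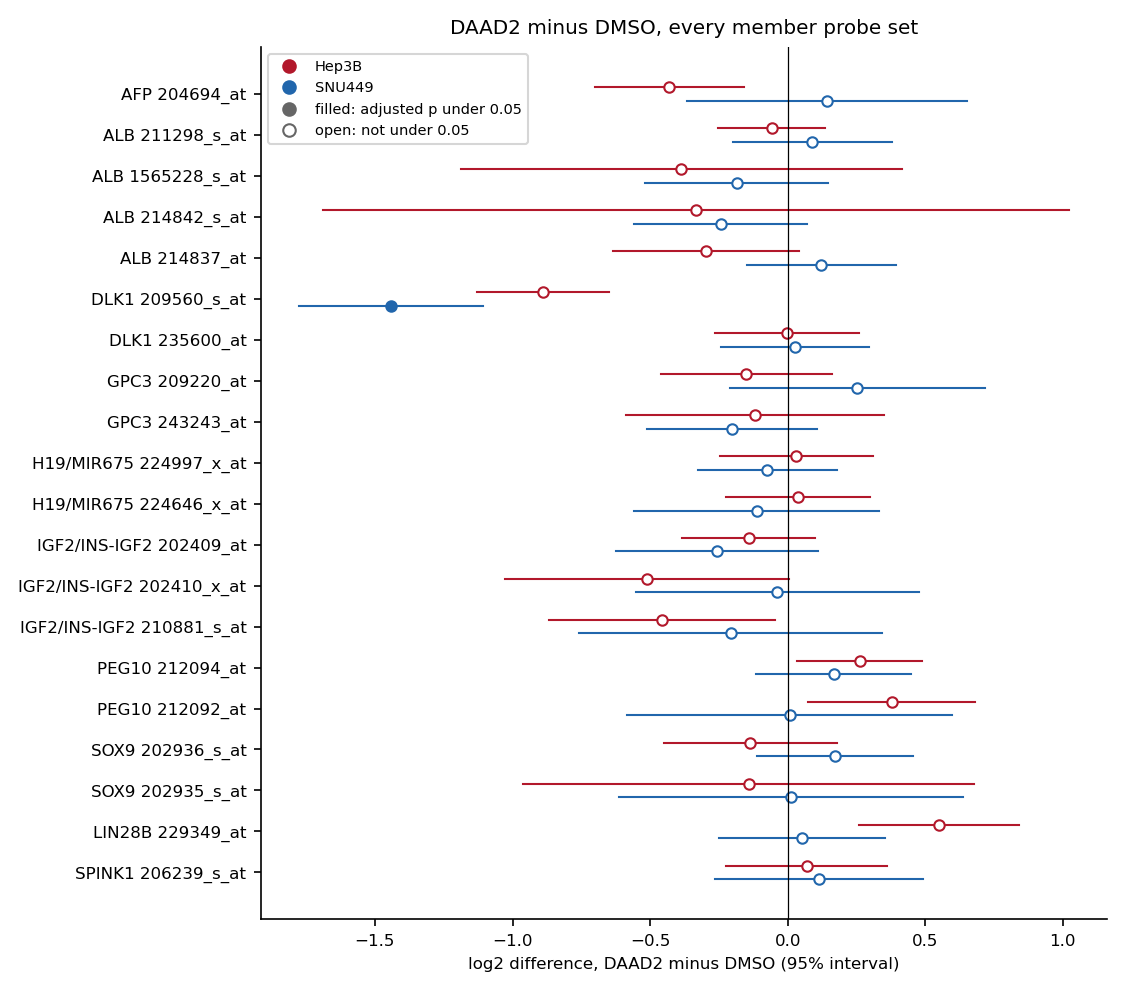
Difference in log2 level (DAAD2 minus DMSO, horizontal axis) for each of the 20 member probe sets in Hep3B (red) and SNU449 (blue), with 95% intervals from limma; the filled point has an adjusted p under 0.05. The single filled point is DLK1 209560_s_at in SNU449 at −1.44, and the Hep3B interval of the same probe set, −1.13 to −0.65, also lies below 0.

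The response to DAAD2 was compared between the lines in 1 fit over all 12 arrays, at the unequal doses given above. No member probe set was called, against 2.01% of all probe sets, and at an unadjusted p under 0.05 there were 2 members against 14% of all probe sets by limma. DLK1 had a response of −0.89 in Hep3B and −1.44 in SNU449, a difference of 0.55 ± 0.18 (SE, 95% interval 0.16 to 0.95, limma adjusted p = 0.169). LIN28B responses differed by 0.50 ± 0.19 (SE, 95% interval 0.09 to 0.90, limma adjusted p = 0.235), and AFP responses by −0.57 ± 0.28 (SE, 95% interval −1.17 to 0.02, limma adjusted p = 0.380). A different DLK1 response in the lines was thus not shown, and the SNU449 value is bounded by the floor of the array.

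DLK1 levels averaged 8.84 ± 0.13 in treated Hep3B cells and 9.73 ± 0.09 in Hep3B controls, and 3.22 ± 0.09 in treated SNU449 cells and 4.66 ± 0.27 in SNU449 controls (SD, n = 3 each). From high to low the groups ran from Hep3B controls through treated Hep3B cells and SNU449 controls to treated SNU449 cells, with no overlap between neighbours. AFP levels averaged 8.10 ± 0.13 in treated Hep3B cells and 8.53 ± 0.17 in Hep3B controls, and 4.25 ± 0.40 in treated SNU449 cells and 4.11 ± 0.33 in SNU449 controls (SD, n = 3 each), and the SNU449 groups overlapped. The genes whose deviations from the DMSO mean of their line were most like those of DLK1 over the 12 arrays, among 19767 genes, were TRIM16L, LANCL2 and PLEK2 (Pearson r = 0.94, 0.93 and 0.92). For AFP they were HSD11B1L, ALPP and TRPM6 (r = 0.95, 0.94 and 0.93). The arrays share lines and treatments, and none of these genes passed the adjusted threshold in either line, so the likeness is a description.

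Several members are imprinted or sit beside imprinted genes, and the neighbours of DLK1 and PEG10 were read as well. MEG3, the non-coding RNA that follows DLK1 on chromosome 14, was read by 10 probe sets that spanned 2.80 to 4.94 over all arrays and both lines. By the brightest of them, 210794_s_at, MEG3 had 4.49, 4.38 and 4.27 in DAAD2-treated Hep3B cells, against 4.58, 4.93 and 4.94 in Hep3B controls, so the treated arrays were the lower, though close to the array median. In SNU449 it had 4.48, 4.34 and 4.43 in treated cells, against 4.53, 4.29 and 3.90 in controls, and the groups overlapped. Not every MEG3 probe set was lower in treated Hep3B cells, since 226210_s_at had 3.25, 3.10 and 3.19 there, against 3.11, 2.88 and 2.94 in Hep3B controls. SGCE, the gene next to PEG10 on chromosome 7, had 9.22, 9.25 and 9.22 in treated Hep3B cells, against 9.41, 9.47 and 9.42 in Hep3B controls, whereas PEG10 had its higher values in treated cells. In SNU449, SGCE had 9.50, 9.50 and 9.48 in treated cells, against 9.19, 9.07 and 8.72 in controls. Neither SGCE nor MEG3 by 210794_s_at was called within a line. SGCE differed by −0.21 in Hep3B and 0.50 in SNU449 (limma adjusted p = 0.308 and 0.142). For MEG3 the differences were −0.44 and 0.18 in that order of lines (limma adjusted p = 0.166 and 0.781). MEG3 and SGCE were chosen for description after their values were seen.

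Genes around this programme were measured in 10 further lists, none of which holds a member. In Hep3B no gene of any list was called, as for all genes (0%). At an unadjusted p under 0.05, 13.6% of all genes were higher and 6.63% lower in treated Hep3B cells. The hepatocyte list of 15 genes had 6 lower and 0 higher by that measure, with a median of −0.21, against −0.01 over 19775 genes. The largest was APOC3, an apolipoprotein of triglyceride-rich particles, at −0.70 ± 0.11 (SE, limma adjusted p = 0.0770). Among 19 progenitor markers, 2 were higher and 1 lower at an unadjusted p under 0.05. The lower one, ANPEP, an aminopeptidase of bile canaliculi, had the largest difference of the list at −0.97 ± 0.10 (SE, limma adjusted p = 0.0535). Among 14 genes of the LIN28 and let-7 axis, MYCN, a transcription factor of growth, was at −0.93 ± 0.18 (SE, limma adjusted p = 0.0910), whereas LIN28B itself was at 0.55. FOXA3, a hepatocyte factor of the regulator list, was at −0.58 and IGFBP4, of the insulin-like growth factor axis, at −0.49 (limma adjusted p = 0.0823 and 0.222). In the imprinted, SOX9 and mesenchymal lists the largest difference was upward, with PHLDA2, an imprinted growth restrictor, at 0.86 ± 0.14 (SE, limma adjusted p = 0.0778). ANKRD1, a YAP target, was at 0.87 ± 0.24 and VIM, the mesenchymal filament vimentin, at 0.53 ± 0.20 (SE, limma adjusted p = 0.160 and 0.261). ANKRD1 averaged 4.33 in treated Hep3B cells and 3.46 in Hep3B controls, so its control level lay below the array medians, where little signal can be read.

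In SNU449, 1.82% of genes were called higher and 0.561% lower, and 9 genes of the lists were called. FGB, the fibrinogen beta chain, rose by 1.56 ± 0.19 and AMBP, the alpha-1-microglobulin precursor, by 0.99 ± 0.17 (SE), so that 2 of 15 hepatocyte genes rose and 0 fell. SPP1, osteopontin, rose by 1.83 ± 0.27 and ICAM1, an adhesion molecule, by 0.67 ± 0.11 (SE), 2 of 19 progenitor markers. CEBPB, a transcription factor of the acute phase, rose by 1.05 ± 0.13, 1 of 12 regulators of the albumin family and AFP, while ALB stayed at the bottom of the scale. GPC6, a relative of GPC3, rose by 1.02 ± 0.13, 1 of 8 glypican and sulfatase genes, and TGFBI, a matrix protein, rose by 0.99 ± 0.11 (SE), 1 of 8 mesenchymal genes.

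PHLDA2 fell by 0.75 ± 0.13, 1 of 17 imprinted genes, and CCN2, a YAP target, fell by 0.74 ± 0.14 (SE), 1 of 15 genes of the SOX9, YAP and Notch list. The 14 genes of the LIN28 axis and the 14 of the insulin-like growth factor axis held no called gene. The limma adjusted p of the 9 genes ran from 0.00566 for TGFBI to 0.0424 for CCN2. Without SNU449 DAAD2 replicate 1 all of them but TGFBI lost the call, with adjusted p of 0.0559 to 0.157. CEBPB, SPP1, ICAM1, PHLDA2, GPC6 and CCN2 also lost it without DMSO replicate 2 and without DMSO replicate 3. AMBP, ICAM1, PHLDA2 and CCN2 kept it in 1 of the 6 fits with 1 array left out, and TGFBI in all 6. The mean of the hepatocyte list in SNU449 was 5.02 to 5.11 in treated cells and 4.69 to 4.81 in controls. FGB and AMBP are part of that mean, and the uncalled genes of the list differed by −0.50 for AHSG to 0.89 for RBP4. The median difference of the list was 0.20, against 0.003 over all genes. The cause of the shift was not tested.

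**Figure D4:**
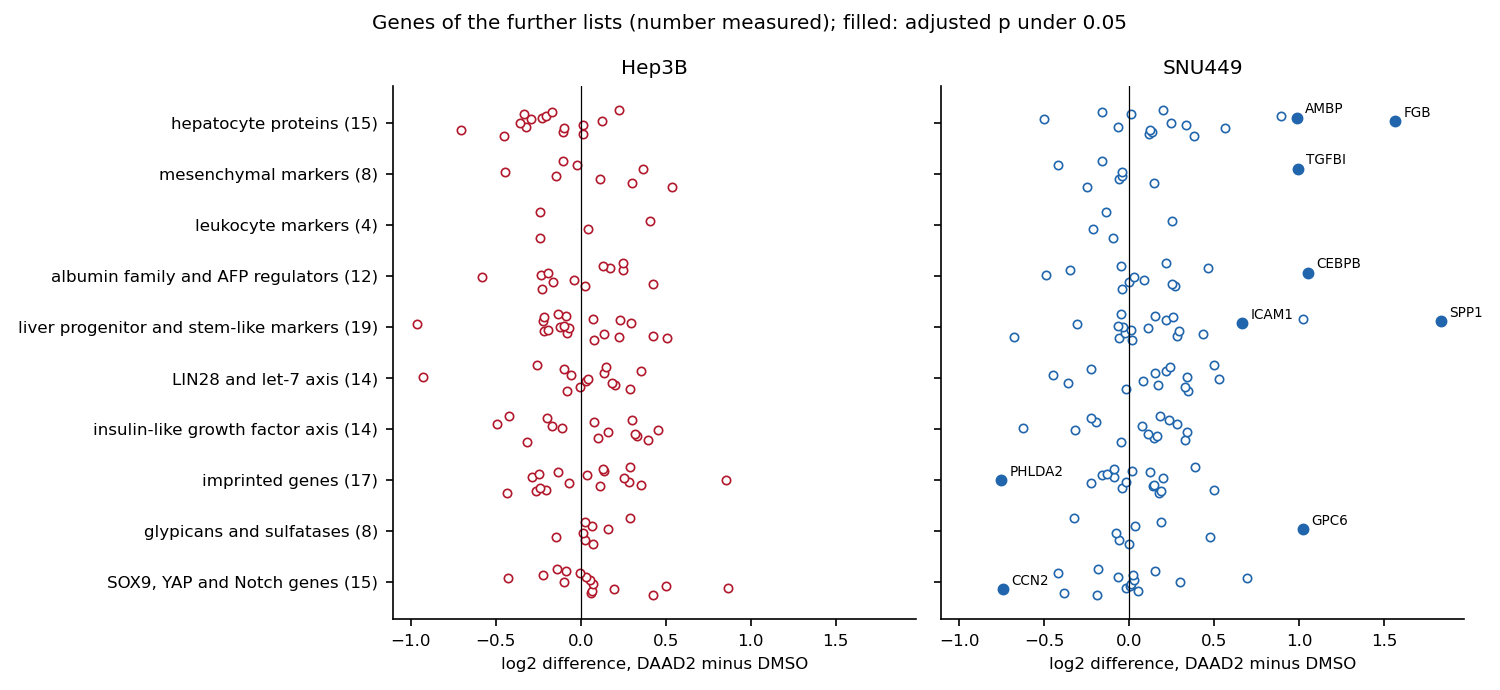
Difference in log2 level (DAAD2 minus DMSO, horizontal axis) for the genes of 10 lists, with the number measured in brackets, in Hep3B (left) and SNU449 (right); each point is a gene by its brightest probe set and filled points have an adjusted p under 0.05. There are no filled points in Hep3B, and the 9 filled points in SNU449 run from PHLDA2 at −0.75 to SPP1 at 1.83.

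Between the untreated lines the same lists placed the members in context, with 21.4% of genes called higher and 19.4% lower in Hep3B. Of 15 hepatocyte genes 13 were higher and 2 lower in Hep3B, led by APOA2, AHSG and RBP4, secreted liver proteins, at 10.74, 10.24 and 9.63. Of 8 mesenchymal genes 6 were lower and 2 higher, led by AXL, SPARC and CAV1 at −7.52, −5.02 and −4.97. Of 12 regulators 8 were higher and 2 lower, among them CEBPA at 7.16, FOXA3 at 5.30 and GATA6 at 4.51, hepatocyte and endoderm factors. The progenitor markers were divided, with 8 higher and 5 lower of 19, EPCAM at 8.34 beside CD44 at −8.93 and KRT7 at −6.65.

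The LIN28 axis had 8 of 14 genes higher and 1 lower in Hep3B, with TRIM71, a let-7 target, at 5.71 and MYCN at 3.73. The insulin-like growth factor axis had 4 of 14 higher and 8 lower, with the binding proteins IGFBP5, IGFBP4 and IGFBP6 at −8.39, −3.46 and −3.26, while IGF2/INS-IGF2 was higher. Of 17 imprinted genes 7 were higher and 3 lower, with PEG3 at 3.63, MEST at 2.40 and PHLDA2 at −3.05. Among 8 glypican and sulfatase genes 2 were higher and 2 lower, with GPC6 at 3.27 and GPC4, the neighbour of GPC3 on the X chromosome, at −3.04. Among 15 genes of the SOX9, YAP and Notch list 5 were higher and 7 lower, with COL2A1, a known SOX9 target of cartilage, at 6.99, while SOX9 itself was lower in Hep3B.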

How the data were processed

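Total RNA of 12 samples was read on Affymetrix U133 Plus 2.0 arrays. The deposited values are on a log2 scale and were obtained by the authors through RMA (version not given in the sources used here), 1 per probe set; depth does not apply to arrays, and 3 arrays a group limit the precision. The study's methods name BRB Array Tools for quality control and normalization. Control probe sets (62) were left out. Probe sets were named through the platform annotation, and no symbol needed an update; 0 columns of per-sample values were left unused.

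Groups were compared with limma 3.58.1 in R 4.3.3 (lmFit and eBayes, Benjamini-Hochberg adjustment over all 54613 probe sets, threshold 0.05); each pair of groups was fitted alone, and the response of the lines in 1 fit of 12 arrays. Alternatives were other scalings and moderation, a filter on dim probe sets, a replicate block and each array left out. Every member probe set was reported; a gene of a list stood for its brightest single-symbol probe set, and up to 3 called genes with the largest difference, or else 1, were named per list and comparison, not all of which are printed. The genes most like DLK1 and AFP were the 3 highest by Pearson r. The members and lists were chosen with earlier results of these data known. The script was tested on simulated data.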

Additional observations from a re-analysis of the deposited data

Results flagged for a closer look

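For 9 genes of the lists around the members, the DAAD2 response of Hep3B minus that of SNU449 passed the test of the difference itself by limma, at unequal doses. Of all genes, 1.82% passed it with a higher and 1.46% with a lower response in Hep3B. The difference was −1.44 for FGB, −1.21 for AMBP and −0.83 for APOC3, all hepatocyte genes. It was −2.06 for SPP1, −1.24 for CEBPB, −1.27 for MYCN, −0.71 for SGCE and −0.86 for GPC6, and 1.61 for PHLDA2. For SPP1, MYCN and APOC3, 1 of the lines lay near or below its array medians, where little response can be read. SPP1 averaged 2.86 in treated Hep3B cells and 3.09 in Hep3B controls. In SNU449, treated cells and controls averaged 3.34 and 3.00 for MYCN, and 3.94 and 3.82 for APOC3. With each of the 12 arrays left out in turn, 5 of the 9 kept the call in every fit; FGB, APOC3, SPP1 and SGCE did not, and their adjusted p without 1 array reached 0.0593, 0.0814, 0.0545 and 0.0949. MYCN, 1 of the 5, lost the call with the replicate block (adjusted p = 0.0534), as did APOC3 and SGCE (0.0918 and 0.0930), and no moderation of the variances cost 6 of the 9 theirs. No member gene passed this test.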

How the results depend on the processing

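Of 80 member differences, 30 took the other sign under at least 1 alternative, and none of the 15 that passed the test did. In Hep3B the count of members past the threshold was 0 and became 1, DLK1, with all 12 arrays in 1 fit (adjusted p = 0.0203), with arrays centred on the median (0.0482), with an intensity trend (0.0191) and by fold over 1.5 with unadjusted p under 0.05 (1). Over all probe sets these settings called 154, 77, 137 and 885 in Hep3B, against 0. In SNU449 the count of 1 became 0 with no moderation, where no probe set was called, while all 12 arrays in 1 fit called 1850 and the fold rule 1798, against 798. For the difference in response, no moderation called 337, the fold rule 3703, and quantile and cyclic loess scaling turned 661 higher and 435 lower into 467 and 592, and 416 and 621.

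The same replicate numbers run through the groups. Within a line, same-numbered treated and control arrays did not clearly deviate together (r between −0.27 and 0.09). Between the DMSO arrays of the lines, r was 0.06, 0.21 and 0.02 for replicates 1, 2 and 3. For replicate 2 the Hep3B array reached at most −0.03 with SNU449 arrays of other numbers, so that pair deviated together weakly. With the replicate block, 262 probe sets were called in SNU449 and 420 for the difference in response, against 798 and 1096. DLK1 kept its call in SNU449 (adjusted p = 0.0292), AMBP, ICAM1, PHLDA2 and CCN2 lost theirs there (0.0587, 0.0826, 0.0679 and 0.0953), and APOC3, MYCN and SGCE lost theirs in the difference in response (0.0918, 0.0534 and 0.0930). In the same fit the line comparison gained SOX9 202935_s_at and H19/MIR675 224646_x_at (adjusted p = 0.0217 and 0.0499), 16 members against 14.

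Leaving out 1 array moved the calls over all probe sets. The member counts, 1 in SNU449 and 0 in Hep3B and in the difference in response, stayed the same. They are too small to show whether members were steadier than other probe sets. In SNU449, 128, 1168 and 531 were called without DAAD2 replicate 1, 2 and 3, and 314, 123 and 105 without DMSO replicate 1, 2 and 3, against 798, and the 228 lower calls became 11 to 573. For the difference in response, the 1096 calls became 435 without SNU449 DMSO replicate 3 and 2321 without SNU449 DAAD2 replicate 2. They were 453 and 456 without Hep3B DAAD2 replicate 1 and 2, 511 and 593 without Hep3B DMSO replicate 1 and 2, 499 without SNU449 DAAD2 replicate 1 and 482 without SNU449 DMSO replicate 2. In Hep3B there were 6 without DAAD2 replicate 3 and 0 without any other array, and between the lines 13762 to 14949, against 15981.

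SPINK1 in Hep3B was −0.095 after quantile normalization and lay between −0.016 and 0.17 with 1 array left out. With 1 array left out, AFP in SNU449 lay between −0.082 and 0.30, LIN28B in SNU449 between −0.054 and 0.17, and PEG10 212092_at between the lines from −0.092 to 0.34. H19/MIR675 224646_x_at was called between the lines without SNU449 DMSO replicate 3 (adjusted p = 0.0275). PEG10 212094_at lost its call between the lines with no moderation (0.0600) and as a mean of its probe sets (0.162), and ALB 214842_s_at with no moderation (0.122). Of the list genes named as called, no moderation cost 9 of 9 their call in SNU449 and 6 of 9 in the difference in response, and centring the arrays cost PHLDA2 and CCN2 theirs in SNU449 (adjusted p = 0.0525 and 0.0668). The causes were not tested. Where a level lies near the array median, little signal limits what a difference can show.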
